A study of Mus musculus with 2 samples.

Results

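The 7 genes Chil3, Retnla, Ear2, Il4ra, Il13ra1, Il13 and Il10, which make or carry the type 2 (IL-4 and IL-13) alternative activation program of macrophages, were followed through the cells of mouse skin wounds. They were taken by symbol from the 31053 genes of the count matrices, and 6 of the 7 had at least 50 UMIs in macrophage-like cells. The study used C57BL/6 mice of 7 to 9 weeks with back skin wounds, taken on day 5, to ask what CD206+ macrophages contribute to repair. Live cells of 3 pooled mice per condition gave 1 single-cell library each. The Mrc1-DTR library comes from Mrc1-DTR mice given Diphtheria toxin, in which the promoter of Mrc1 (CD206) drives the toxin receptor, so the toxin should kill any cell type that uses this promoter. The control library carries the treatment label PBS and the same genotype label, whereas the study's methods describe its controls as wild-type mice that also received toxin. With 1 library per condition there was no replicate and no test between conditions, and all intervals below are 95% intervals for counting error only. Where a pair of values is given with no library named, the control comes first.

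IL-4 and IL-13 act through receptors that share the IL-4Ralpha chain, encoded by Il4ra. IL-4Ralpha pairs with the common gamma chain to bind IL-4 alone, or with IL-13Ralpha1, encoded by Il13ra1, to bind either cytokine. Both receptors activate the transcription factor STAT6, which turns on genes such as Chil3 (Ym1, a chitinase-like lectin), Retnla (RELMalpha, a secreted cysteine-rich protein) and Arg1 in mouse macrophages. Ear2 encodes a secreted ribonuclease of the eosinophil-associated family and is also made by some macrophages and dendritic cells. Il10 encodes an anti-inflammatory cytokine that uses STAT3 rather than STAT6 and is often listed with alternatively activated macrophages.

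Promoter sequences of RefSeq (build GRCm38.p6) were found for 6 of the 7 genes. The 250 bases before each start were searched for the letters TTCNNNNGAA, the spacing preferred by STAT6, and for TTCNNNGAA, the spacing shared by most STAT proteins. Each pattern reads the same on both strands, and the spacings differ, so that no match counts for both. Of 32851 promoters, 5.85% held the first pattern and 7.02% the second. Retnla held 1 match to the first and Chil3 1 match to the second. The stretches around these matches, the only ones found, are shown with the match in capitals. Whether the matches bear on the levels below was not tested. The Retnla stretch lies upstream of the gene on the plus strand at chr16:48842409-48842528, and its match starts 145 bases before the start. The Chil3 stretch lies upstream of the gene on the minus strand at chr3:106167673-106167792, and its match starts 172 bases before the start. Starts are those of RefSeq, and for Retnla and Il4ra they lie inside the gene spans given below. The Retnla match is therefore nearer to the edge of its span than to its RefSeq start. A match describes the letters and not a bound site.
Retnla: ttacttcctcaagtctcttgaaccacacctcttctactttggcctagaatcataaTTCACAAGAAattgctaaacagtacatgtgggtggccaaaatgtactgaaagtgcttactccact
Chil3: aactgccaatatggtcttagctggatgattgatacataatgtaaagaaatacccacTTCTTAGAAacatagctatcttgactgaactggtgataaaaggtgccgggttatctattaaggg
The windows of Ear2, Il4ra, Il13ra1 and Il13 held neither pattern. In GRCm38 (mm10), the build of the counts, the genes lie at chr3:106147554-106167564 (Chil3), chr16:48842551-48844461 (Retnla), chr14:44102654-44103534 (Ear2), chr7:125552120-125579474 (Il4ra), chrX:36112110-36171259 (Il13ra1), chr11:53631324-53634702 (Il13) and chr1:131019845-131024974 (Il10). All 7 are protein coding. Ear2 and Il4ra each overlap an annotated non-coding gene on the opposite strand.

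The files held 12058 control barcodes with 105511870 UMIs and 11031 Mrc1-DTR barcodes with 81858751 UMIs, and 37 barcodes occurred in both. With at least 500 genes, at most 6% mitochondrial UMIs and doublets removed, 7944 and 6613 cells stayed, with medians of 9579.5 and 7286 UMIs. Clusters made without the 7 genes gave 11 classes of at least 50 cells over both libraries, named from their markers ("-like"), and 18 myocyte-like cells (7 and 11) were left out as too few. The macrophage-like class made up 22.9% of control cells (1818 cells, median 4821 UMIs) and 68.0% of Mrc1-DTR cells (4496 cells, median 6746.5 UMIs). Mrc1 over all kept cells was higher in the Mrc1-DTR library, at 65.4 and 268 CPM (UMIs of the gene scaled to the total UMIs of the same cells), and within macrophage-like cells it was a little lower, at 490.3 and 432 CPM. The study's text also gives the 2 barcode totals to the opposite conditions, so every direction below rests on the labels. The larger all-cell macrophage cluster, led by C1q genes, held 1754 control and 2521 Mrc1-DTR cells, and the smaller held 64 and 1975, so the class has a different make-up in each library. Summed fibroblast markers in macrophage-like cells stood at 746 and 152 CPM, epithelial markers at 405 and 116, dendritic markers at 7048 and 2956, and neutrophil markers at 125 and 204, and the part of each in the results below was not tested.

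Macrophage-like cells held nearly all UMIs of Chil3 and Retnla and most of those of Il10. The level of Chil3 in control neutrophil-like cells was nevertheless as high as in control macrophage-like cells (164 and 158 CPM). The neutrophil-like value came from 6 of 128 cells, and 1 of them held 16 of the 32 UMIs. In the macrophage-like class 333 of 1818 control cells had a UMI. Ear2 was divided between macrophage-like, dendritic-like and epithelial-like cells. Il4ra was found in all 11 classes with at least 9 UMIs in each library, Il13ra1 was at or under 3 UMIs in some of the lymphoid and mast-like groups, and Il13 came from small numbers of lymphoid and mast-like cells. A gene is called at least 2-fold higher or lower where its log2 ratio with 1 CPM added to both libraries reached 1 or -1. Of the members in the macrophage-like class, Chil3 was at least 2-fold higher in Mrc1-DTR, as were 1.53% of the 10231 genes with at least 50 UMIs. Retnla and Ear2 were at least 2-fold lower, as were 3.26% of those genes. Il4ra and Il13ra1 were not called. Il10 lay at the limit, with a log2 ratio of -0.99 (2.03-fold lower with nothing added), and several other settings put it past the limit. Over all those genes, the median log2 ratio was 0.06.

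**Figure D1:**
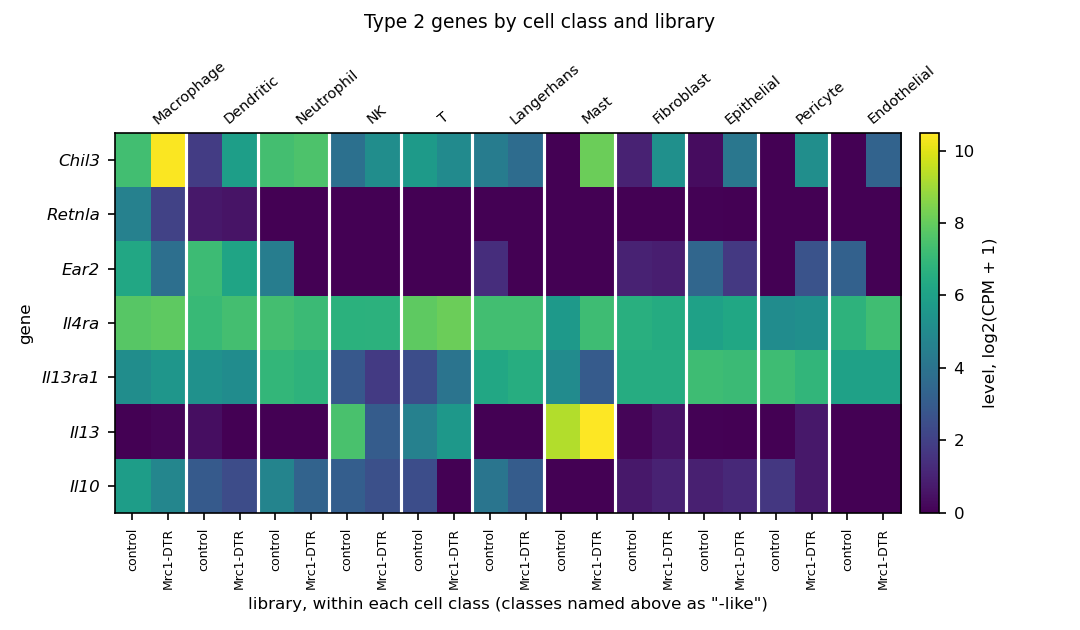
Level of each gene, as log2 of CPM plus 1 (colour), in each cell class and library, where classes are in pairs of control and Mrc1-DTR columns. Read along a row: Chil3 is highest in Mrc1-DTR macrophage-like cells at 1360 CPM, Il13 in mast-like cells at 627 and 1429 CPM, and Il4ra is present in every class.

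Il13, the ligand, was detected in 40 control cells (376 UMIs) and 30 Mrc1-DTR cells (228 UMIs). NK-like cells held 66.0% of the control UMIs and mast-like cells 31.1%, while mast-like cells held 88.6% of the Mrc1-DTR UMIs. In the control NK-like cluster, 14 of 184 cells held 248 UMIs, of which 1 cell held 175 and the next 35. Its level there was 175.5 CPM (154 to 199), and 52.3 CPM without the highest cell. In the Mrc1-DTR NK-like cluster, 4 of 124 cells held 9 UMIs, or 7.28 CPM (3.33 to 13.8). Expressed as log2 of Mrc1-DTR over control, with 1 CPM added to each, the ratio was -4.41 (-5.37 to -3.55). The NK genes looked at, only some of the markers that name the cluster, were rare in its Il13+ cells. Klrb1c, an NK receptor, and Gzma, a granzyme, which are among the markers that name the cluster, and Ncr1, another receptor, had no UMI in any of the 14 control or 4 Mrc1-DTR cells, and among control NK-like cells without Il13 they were found in 37, 65 and 26 of 170. Nkg7, a granule gene that also names the cluster, was in 0 of 14 and 1 of 4 cells with Il13, beside 98 of 170 control cells without. Il5, the second cytokine of type 2 lymphocytes, was present in 9 of 14 and 4 of 4 cells with Il13 and in 5 of 170 control cells without. Gata3, a factor of type 2 lymphocytes, was found in 13 of 14 against 80 of 170, and Rora, a factor of innate lymphoid cells, in 14 of 14 against 142 of 170. Il1rl1, the IL-33 receptor, was in 6 of 14 against 45 of 170, and Areg, a growth factor, in 10 of 14 against 76 of 170. These control intervals overlapped for Rora, Il1rl1 and Areg and not for Gata3. In Mrc1-DTR, Il1rl1 was in 3 of 4 against 14 of 120, and those intervals did not overlap. The rest of the cluster was mixed too. Cd3e, a T cell marker, was in 76 of 170 control and 65 of 120 Mrc1-DTR cells without Il13. It was in 2 of 14 and 0 of 4 cells with Il13. The T cell receptor genes Trbc1 and Trbc2 and the gene Icos were among those that led the cluster. NK-like is thus the name of the cluster and not of each of its cells. Its Il13+ cells are given no other name.

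Mast-like cells held 117 Il13 UMIs in 19 of 34 control cells (627 CPM, 518 to 751) and 202 UMIs in 13 of 18 Mrc1-DTR cells (1429 CPM, 1239 to 1640). The log2 ratio was 1.19 (0.85 to 1.53). The highest cell held 44 and 93 UMIs, and the levels without it were 409 and 858 CPM. In each library 3 cells had at least 10 Il13 UMIs, and they held 59.0% and 82.7% of the class's Il13 UMIs. Without those cells the levels were 301 and 357 CPM. The class is a mixture. Control cells with more UMIs of the basophil protease Mcpt8 than of mast cell proteases numbered 20 and held 54 Il13 UMIs, and 13 cells with more mast cell proteases held 63. In the Mrc1-DTR library 5 cells of the first kind held 4 UMIs and 12 of the second held 195. The mix of both kinds thus differed between the libraries, and its part in the ratio was not tested. Il4, the other ligand of the receptors, was found in 8 control mast-like cells (9 UMIs, all in cells with more Mcpt8) and in 9 Mrc1-DTR mast-like cells (35 UMIs, of which 30 lay in cells with more mast cell proteases), with at most 3 UMIs in any other class. T-like cells, all of which had Trdc, a gammadelta receptor gene, and none of which had Cd4 or Cd8a, held 5 and 9 Il13 UMIs in 4 and 7 cells. Macrophage-like cells had 0 and 3 UMIs, and a count of 0 in 1818 cells allows a level of up to 0.329 CPM.

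Il4ra was measured in every class. Macrophage-like cells had 215 CPM (206 to 225) and 236 CPM (230.2 to 241), a log2 ratio of 0.13 (0.06 to 0.20). After each cell was thinned to 2000 UMIs, leaving out 224 and 141 shallower cells, 31.9% and 36.7% of macrophage-like cells had a UMI, beside 53.7% and 70.8% unthinned. In the control the order of levels was T-like (232 CPM, 172 to 306), macrophage-like, neutrophil-like (164), Langerhans-like (156), dendritic-like (134.5), endothelial-like (109.7), NK-like (104), fibroblast-like (97.6), epithelial-like (63.7), mast-like (48.2) and pericyte-like (33.5, 22.6 to 47.9). The intervals of T-like, macrophage-like and neutrophil-like cells overlapped, as did those of endothelial-like, NK-like and fibroblast-like cells. In the Mrc1-DTR library T-like cells (275 CPM) and macrophage-like cells were again the highest and pericyte-like cells (36.3 CPM) again the lowest. Ratios were small in the other large classes, at 0.25 (0.08 to 0.42) in dendritic-like, 0.24 (0.06 to 0.42) in epithelial-like and -0.16 (-0.27 to -0.05) in fibroblast-like cells. The fibroblast-like class held a cluster led by Ctsk, at -0.27 (-0.43 to -0.12), and another led by Mfap5, at 0.30 (0.14 to 0.46). The first held 2162 control and 311 Mrc1-DTR cells, and the second 904 and 345. Mast-like cells stood at 48.2 and 149 CPM, from 9 and 21 UMIs, a log2 ratio of 1.60 (0.43 to 2.88).

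Il13ra1 had another order. It was highest in epithelial-like cells, at 149 CPM (145 to 154) and 139.6 CPM (128 to 152), and in pericyte-like cells, at 148 and 119.6 CPM, followed by neutrophil-like cells at 123 (78.9 to 183) and 109.0 CPM (90.5 to 130.3). Fibroblast-like cells had 87.9 and 88.4 CPM, Langerhans-like cells 76.2 and 91.0, and endothelial-like cells 62.9 and 62.4. Macrophage-like cells had 34.1 CPM (30.4 to 38.1) and 44.5 CPM (42.2 to 46.9), a log2 ratio of 0.38 (0.20 to 0.55), and their intervals overlapped those of dendritic-like cells in the control (38.6 CPM). In NK-like cells it was near the floor, with 9 and 3 UMIs. Epithelial-like cells alone held 52.4% of the control UMIs. Among thinned control macrophage-like cells, Il13ra1 was seen in 5.89% (4.01 to 8.31) of those with Il4ra and 6.18% (4.82 to 7.78) of those without. In Mrc1-DTR the shares were 9.02% (7.66 to 10.5) and 8.63% (7.61 to 9.74), so the intervals overlapped in both libraries. Across the 7 macrophage states described below, Il13ra1 stayed between 31.8 and 40.7 CPM in the control states of more than 7 cells and between 33.7 and 51.2 CPM in the Mrc1-DTR states, with overlapping control intervals. Il13ra2, the decoy receptor for IL-13, was a fibroblast transcript, with 83.4% of 187 control and 84.5% of 71 Mrc1-DTR UMIs.

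Chil3 was the member called higher. In control macrophage-like cells 1440 UMIs gave 158 CPM (149.8 to 166), and in those of Mrc1-DTR 42436 UMIs gave 1360 CPM (1347 to 1373). The log2 ratio was 3.10 (3.02 to 3.18), and with nothing added the level was 8.62-fold higher. More cells had the gene and they had more of it. After thinning, the share of macrophage-like cells with a UMI was 12.6% (11.0 to 14.3) and 57.6% (56.1 to 59.1), and unthinned it was 18.3% and 68.8%. In epithelial-like cells, a type not known for Chil3, with medians of 12592 and 16070 UMIs, the thinned shares were 0 of 2032 cells, which allows up to 0.148%, and 2.62%. Among macrophage-like cells with a UMI, the median number of UMIs was 2 and 8. Macrophage-like cells held 91.1% and 97.6% of all its UMIs in kept cells.

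Several other classes of the Mrc1-DTR library also carried more Chil3, at 2.67 and 56.9 CPM in dendritic-like, 1.03 and 37.9 in fibroblast-like, 0.281 and 16.7 in epithelial-like and 13.4 and 34.0 in NK-like cells. Mast-like, pericyte-like and endothelial-like cells had 0 control UMIs and 276, 35.7 and 9.09 CPM in Mrc1-DTR, from 39, 60 and 7 UMIs. In mast-like cells 30 of the 39 UMIs lay in 1 cell, and in pericyte-like cells 35 of the 60. These levels rested on few cells. In the Mrc1-DTR library 11 fibroblast-like cells with at least 10 UMIs held 78.5% of the class's UMIs and left 8.33 CPM without them, and 6 dendritic-like cells held 78.8% and left 12.4 CPM. What these cells are was not tested. T-like cells (51.0 and 31.1 CPM) and Langerhans-like cells (19.8 and 12.0 CPM) had intervals of the ratio that included 0. Neutrophil-like cells had 164 CPM (112 to 232) from 32 UMIs and 189 CPM (164.5 to 217) from 210 UMIs, and the interval of their ratio, -0.34 to 0.78, included 0. With cells thinned to 1000 UMIs, 4.63% of control neutrophil-like and 8.09% of control macrophage-like cells had a UMI.

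**Figure D2:**
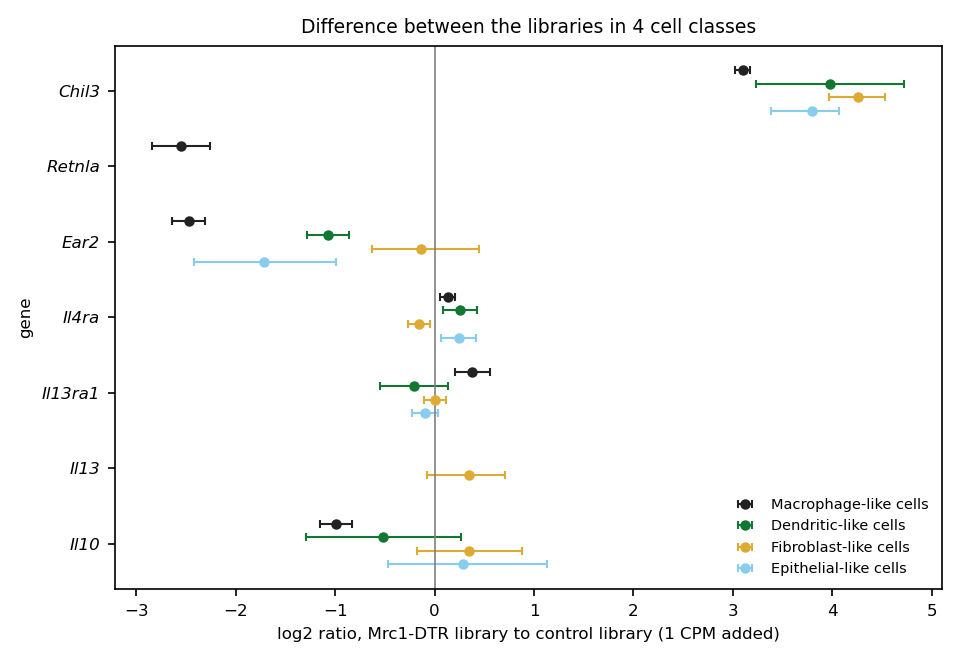
Log2 ratio of the Mrc1-DTR to the control library (x axis, 1 CPM added) for each gene in 4 cell classes (colours), with exact 95% intervals for counting error, and pairs with at most 3 UMIs in a library left out. Chil3 lies to the right in all 4 classes, Retnla, Ear2 and Il10 lie to the left in macrophage-like cells, and Il4ra and Il13ra1 lie near 0.

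To see whether the differences follow the mix of macrophages, macrophage-like cells were clustered again without the 7 genes, the wider type 2 list and the state markers, which gave 7 states. State 0, led by Ccl8, Selenop and C1q genes, held 52.0% of control and 16.4% of Mrc1-DTR macrophage-like cells. State 1, the Vcan-like state, held 42 control cells (2.31%) and 1354 Mrc1-DTR cells (30.1%). State 2, led by Arg1, Cxcl3 and Spp1, held 7 and 1116 cells. State 3, led by Il1r2 and class II genes, held 151 and 587, the Ccl7-like state 4 held 312 and 337, the Klf2-like state 5 held 199 and 272, and state 6, led by Mgl2, held 161 and 93. Because the states differ this much in size, a class level mixes a different set of cells in each library.

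Chil3 was higher in the Mrc1-DTR library in each of the 7 states. State 0 stood at 164 and 776.5 CPM (log2 ratio 2.23, 2.12 to 2.34), state 4 at 88.3 and 732 (3.04, 2.65 to 3.45) and state 5 at 28.5 and 359.9 (3.61, 3.13 to 4.14). State 3 stood at 162 and 612 (1.91, 1.69 to 2.15) and state 6 at 26.5 and 77.9 (1.52, 0.90 to 2.17). The level was highest in the Vcan-like state, at 1436 CPM in its 42 control cells and 2320 CPM in its 1354 Mrc1-DTR cells (0.69, 0.53 to 0.85). State 2 had 816 CPM from 23 UMIs in 7 control cells and 1530 CPM in Mrc1-DTR. Chil3 is on the study's gene list for the Vcan state, which was drawn up on these samples and is no independent evidence. To weight states alike, each state was given the same weight in both libraries, its share of the pooled macrophage-like cells. With 1818 control and 4496 Mrc1-DTR cells pooled, most of this mix is from Mrc1-DTR. With states weighted alike, the log2 ratio of Chil3 fell from 3.10 to 1.12, with 538 and 1169 CPM. That value rests on the few control cells of states 1 and 2 and was added after seeing the data. In the smaller all-cell macrophage cluster alone, the levels were 1659 and 2238 CPM.

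**Figure D3:**
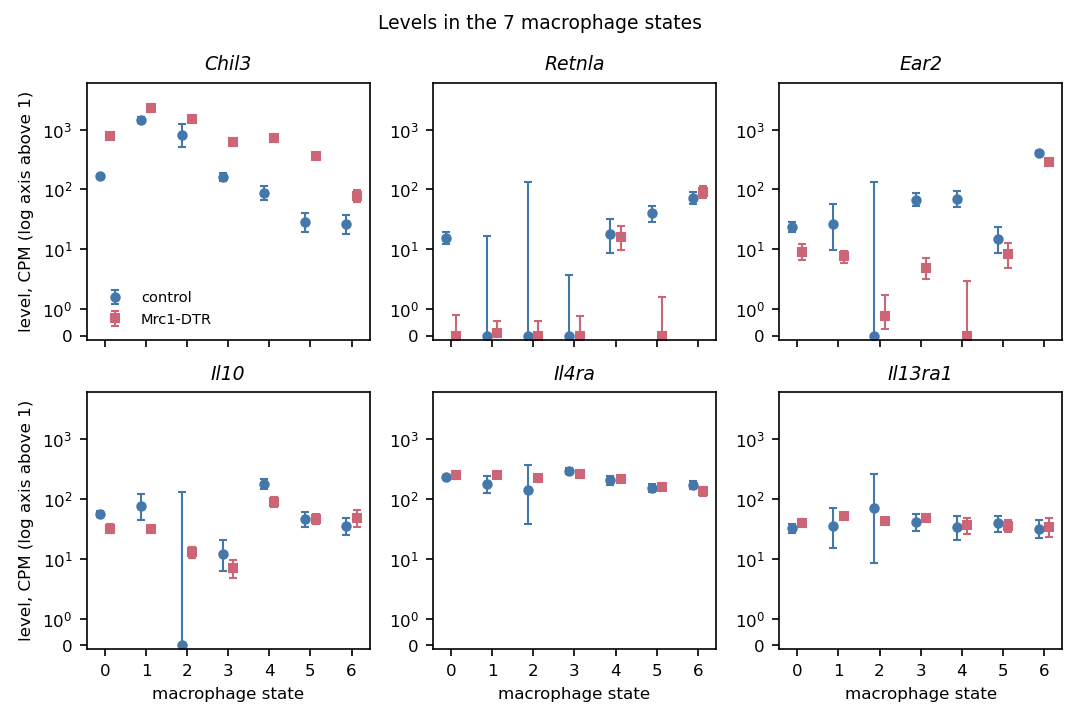
CPM of 6 genes (y axis, linear to 1 and log above) in the 7 macrophage states (x axis) of the control (circles) and Mrc1-DTR library (squares), with exact Poisson 95% intervals. Chil3 is above the control in each state, Ear2 peaks in state 6 at 405 and 284 CPM, Il10 peaks in state 4 at 177 and 87.98 CPM, and Il4ra and Il13ra1 vary least.

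Retnla went the other way and was a gene of a few cells. In the control library 24 of 1818 macrophage-like cells held 214 UMIs, or 23.5 CPM (20.4 to 26.8), and in Mrc1-DTR 5 of 4496 cells held 99 UMIs, or 3.17 CPM (2.58 to 3.86). The log2 ratio with 1 CPM added was -2.55 (-2.84 to -2.26), and with nothing added the level was 7.40-fold lower. After thinning, 1.00% (0.57 to 1.63) and 0.0459% of cells had a UMI, beside 0 in epithelial-like cells of both libraries. The highest control cells held 45, 27 and 24 UMIs. In the Mrc1-DTR library 1 cell held 76 and another 20, and without the highest cell the level was 0.737 CPM and the log2 ratio -3.82. All other kept cells of both libraries together added 3 control and 2 Mrc1-DTR UMIs.

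State 6 held 37.9% of the control Retnla UMIs with 8.86% of the cells, and 78.8% of the Mrc1-DTR UMIs with 2.07% of the cells. In the control, state 0 held 35.5% and state 5 21.5%, and at a finer resolution the highest control state was one led by Hspa1a and Klf2, at 127.9 CPM. In state 6 the levels were 71.5 and 90.7 CPM, from 6 and 3 cells, and the interval of the ratio, -0.12 to 0.80, included 0. Within states, Retnla was lower in states 0 and 5. State 6 also made up a smaller share of the Mrc1-DTR cells, and the part of this shift in the class ratio was not tested. In state 0 Retnla went from 76 UMIs to 0, and in state 5 from 46 to 0. With 3 UMIs in the state taken for a count of 0, these are 24.5-fold and 30.6-fold lower. Both values treat UMIs as separate counts, although few cells held them. Of the 24 control cells with Retnla, 8 held 83.6% of the UMIs, and the sampling of such cells was not tested. Of the 24 control cells, 21 had Mrc1, the gene whose promoter drives the toxin receptor, 11 had Mgl2, a lectin of alternatively activated macrophages, and 7 had Ear2. Among control macrophage-like cells without Retnla, the shares were 71.9% for Mrc1, 19.8% for Mgl2 and 7.53% for Ear2. All 5 Mrc1-DTR cells had Mrc1, beside 65.4% of those without Retnla. For Mrc1, the intervals of cells with Retnla were wide, at 67.6% to 97.3% in the control and from 47.8% upward in Mrc1-DTR. They overlapped those of cells without Retnla in both libraries, so a higher share of Mrc1 in cells with Retnla was not shown. In the control, the intervals for Mgl2 and Ear2 did not overlap. With states weighted alike, the log2 ratio of Retnla was -1.01, and with at most 2000 genes per cell it was -3.96. Chil3 and Retnla were found together in 2 control cells and 1 Mrc1-DTR cell.

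Ear2 was shared by macrophage-like and dendritic-like cells. In macrophage-like cells it had 711 UMIs, or 77.9 CPM (72.3 to 83.9), and 412 UMIs, or 13.2 CPM (12.0 to 14.5), a log2 ratio of -2.48 (-2.64 to -2.31). After thinning, 5.46% (4.39 to 6.69) and 1.19% (0.89 to 1.56) of them had a UMI, with 7.81% and 2.65% unthinned and 1.28% and 0.437% in thinned epithelial-like cells. Dendritic-like cells had 144 CPM (131 to 157) and 67.9 CPM (60.4 to 75.9), a log2 ratio of -1.07 (-1.28 to -0.87). Macrophage-like and dendritic-like cells held 46.5% and 31.7% of the control UMIs, and 55.5% and 41.0% of the Mrc1-DTR UMIs.

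Within macrophage-like cells Ear2 was concentrated in state 6, at 405 and 284 CPM (log2 ratio -0.51, -0.74 to -0.29), where it was found in 73 of 161 and 30 of 93 cells. State 6 held 64.6% and 59.2% of the Ear2 UMIs of macrophage-like cells. Its macrophage markers summed to 13660 and 9817 CPM, below every other state. Its dendritic markers summed to 10320 and 8983 CPM, and those of state 3 to a similar 10410 and 7177 CPM. The class that Ear2 is given to thus depends on where the line between macrophage-like and dendritic-like cells is drawn. Ear2 was lower in the Mrc1-DTR library also in state 3, at 67.5 and 4.91 CPM (-3.53, -4.14 to -2.93). In state 4 it had 43 UMIs and 0 (-6.13, -6.13 to -4.07). With 3 UMIs taken for the count of 0, this is 28.8-fold lower, a value that treats UMIs as separate counts. In state 5 the interval, -1.69 to 0.18, included 0. With states weighted alike, the log2 ratio of Ear2 in macrophage-like cells was -1.36. Mgl2 was seen in 63.2% (52.2 to 73.3) of thinned control macrophage-like cells with Ear2 and 12.3% (10.7 to 14.0) of those without. In dendritic-like cells, unthinned, Mgl2 was in 90.1% of control cells with Ear2 against 40.3% without, Cd209a in 70.4% against 34.2%, and Flt3, a receptor of conventional dendritic cells, in 9.88% against 47.1%. The same order held in the Mrc1-DTR library, where Flt3 was in 17.1% and 54.5%.

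Ear2 was also found in 61 of 2066 control epithelial-like cells (282 UMIs, 9.90 CPM) and 4 of 235 in the Mrc1-DTR library (9 UMIs, 2.32 CPM). The intervals of 3 genes of macrophages and dendritic cells overlapped between the 61 cells and the rest. Lyz2 was in 21.3% (11.9 to 33.7) of them and 16.4% (14.8 to 18.1) of the other control epithelial-like cells, Mgl2 in 3.28% and 1.10%, and C1qa in 3.28% and 5.19%. Their levels were 64.8 and 32.8 CPM for Lyz2, 13.0 and 1.80 for Mgl2, and 4.32 and 6.26 for C1qa. The Mgl2 level rests on 9 UMIs in 2 of the 61 cells. With so few cells the intervals are wide, and whether these cells hold RNA of other classes was not tested. Krt79, a keratin of the hair follicle's upper part, was in 63.9% (50.6 to 75.8) and 40.2% (38.1 to 42.4). All 4 Mrc1-DTR cells had Lyz2, beside 40.3% of the other 231. In the last 500 bases of the Ear2 transcript, 38.1% of 50-base windows are shared with Ear1, Ear6, Ear10 or pseudogenes of the family, so reads of these copies cannot be fully told apart. Ear1 and Ear6 had 9 and 3 UMIs, all in control epithelial-like cells, and Ear10 none. Of 6 eosinophil markers, Epx, Prg2, Il5ra and Ear6 were at 0 in macrophage-like cells of either library, and Siglecf and Ccr3 together had 10 and 19 UMIs.

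**Figure D4:**
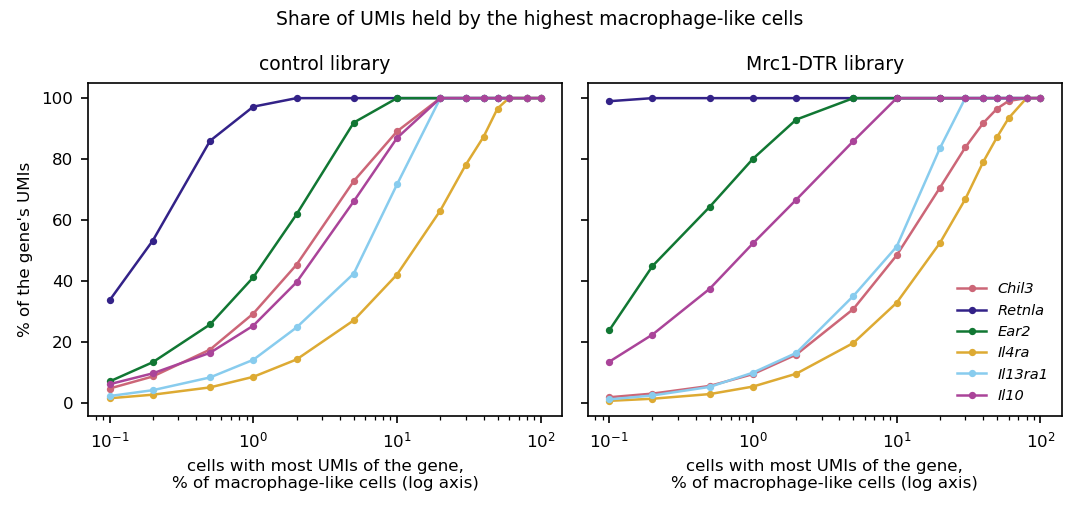
Share of a gene's UMIs (y axis) held by the macrophage-like cells with most of them (x axis, percent of cells on a log axis), for 6 genes in the control and Mrc1-DTR library. The top 1% of cells held 97.2% and 100% of Retnla UMIs, 41.2% and 80.1% of Ear2, 25.4% and 52.4% of Il10, 29.3% and 9.45% of Chil3, and 8.56% and 5.36% of Il4ra.

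Il10 was lower in the Mrc1-DTR library. In macrophage-like cells 505 control UMIs gave 55.4 CPM (50.6 to 60.4), and 852 Mrc1-DTR UMIs gave 27.3 CPM (25.5 to 29.2), a log2 ratio of -0.99 (-1.15 to -0.84). After thinning, 8.16% (6.86 to 9.61) and 3.95% (3.39 to 4.57) of them had a UMI, with 13.6% and 7.67% unthinned and 0.148% and 0.437% in thinned epithelial-like cells. They held 82.4% and 93.9% of its UMIs. Over all kept cells, with 81235634 and 54872675 UMIs, Il10 was higher in the Mrc1-DTR library. The lower level within the macrophage-like class was present in states 0 (55.2 and 31.8 CPM, -0.78, -1.07 to -0.49), 1 (75.6 and 31.8, -1.22, -1.92 to -0.44) and 4 (177 and 87.98, -0.997, -1.39 to -0.61). In states 3, 5 and 6 the intervals included 0, and state 5 stood at 45.7 and 45.9 CPM. The Ccl7-like state 4 was the highest in both libraries, and Il10 is on the study's lists for the Ccl7 and C1qa states, made from these samples. Genes that led state 4 included Ccl8, Selenop, Serpinb6a and Pmp22, which are on the study's C1qa list. Its name thus does not equate it with the study's Ccl7 state. State 4 had the fewest UMIs per cell, with a median of 2204. In the control C1qa was found in 87.9% (83.2 to 91.7) of cells with Il10 and 70.9% (68.6 to 73.1) of those without, and Acod1, the itaconate enzyme, in 14.1% and 5.86%. In thinned cells, Mrc1 was found in 57.7% (48.7 to 66.3) of control cells with Il10 and 51.2% (48.6 to 53.8) of those without, with overlapping intervals, and in Mrc1-DTR in 59.9% (52.1 to 67.3) and 42.9% (41.4 to 44.4). Cells with at least 10 Il10 UMIs numbered 3 in the control, with 8.12% of the UMIs, and 15 in Mrc1-DTR, with 30.6%.

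The members were next set beside the wider pathway, a list of 56 genes by role that includes them. Of these, 47 had at least 50 UMIs in macrophage-like cells. In the Mrc1-DTR library 5 were at least 2-fold higher and 9 at least 2-fold lower, beside 1.53% and 3.26% of all 10231 genes. Without the 7 members, 41 were measured, with 4 higher and 7 lower. The list was chosen with earlier results of these data known, so its counts cannot be read as an enrichment over those shares. The median log2 ratio of the 47 was 0.10 against 0.06 over all genes. Among 20 target genes 17 were measured, 4 higher and 5 lower. Arg1, the arginine-degrading enzyme, went from 40.1 to 626 CPM, Ccl24, an eosinophil chemokine, from 54.5 to 237.9, and Mgl2 from 177 to 29.8 (log2 ratio -2.54, -2.65 to -2.42). Clec10a, the related lectin, went from 106 to 44.6 CPM and Ccl17, a chemokine for type 2 T cells, from 18.6 to 6.31. Retnlg, a relative of Retnla made by neutrophils, had 1 and 66 UMIs in macrophage-like cells, against 94.5% and 96.3% of its UMIs in neutrophil-like cells.

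Receptors and signalling genes had smaller ratios. Of the 6 measured receptors only Il1rl1, the IL-33 receptor, passed 2-fold, from 8.002 to 2.69 CPM, and Il2rg, the common gamma chain, had a log2 ratio of 0.22. All 11 signalling genes were measured, and Socs3, an inhibitor of cytokine signalling, passed 2-fold from 122 to 252 CPM, while Stat6 stood at 48.8 and 61.4 CPM (0.33, 0.18 to 0.47). Ptpn6, a phosphatase that restrains the pathway, stood at 37.5 and 73.8 CPM (0.96). Of 10 transcription factors Pparg, which supports alternative activation, was lower, at 14.5 and 5.22 CPM (-1.31, -1.62 to -1.01). Among ligands and alarmins Il33 (16.1 and 4.68 CPM) and Tslp (3.07 and 0.737 CPM), alarmins of damaged epithelium, were lower. Il33 was mostly found elsewhere, with 28947 UMIs in control epithelial-like cells against 147 in macrophage-like cells, and the epithelial and fibroblast markers given above moved with them. Clec10a, Mgl2, Pparg and Il33 are on the study's C1qa list, again drawn up on these samples.

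**Figure D5:**
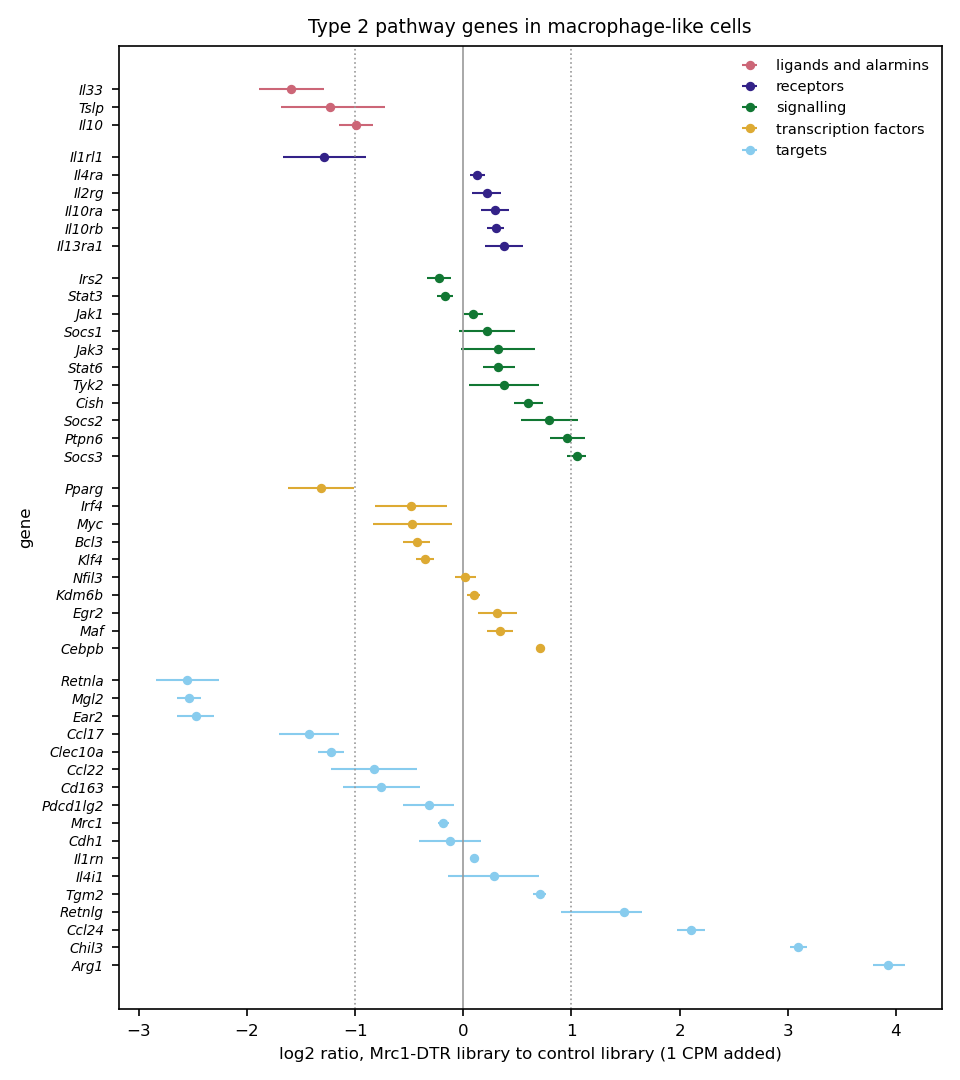
Log2 ratio of the Mrc1-DTR to the control library in macrophage-like cells (x axis, 1 CPM added, exact 95% intervals for counting error) for the 47 measured genes of the type 2 list, coloured by role, where dotted lines mark 2-fold. Target genes reach from Retnla at -2.55 to Arg1 at 3.93, while receptors and signalling genes stay within 2-fold except Il1rl1 and Socs3.

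Targets were also compared cell by cell within the macrophage-like class. In thinned control cells Mgl2 was seen in 5.0% (2.42 to 9.00) of cells with Chil3 and 16.5% (14.6 to 18.6) of those without, and in Mrc1-DTR in 1.40% (0.97 to 1.94) and 5.26% (4.28 to 6.37). Arg1 was found in 2.0% (0.55 to 5.04) of control cells with Chil3 and 3.59% (2.67 to 4.70) of those without, with overlapping intervals, and in Mrc1-DTR in 30.7% (28.9 to 32.5) and 24.3% (22.4 to 26.4). Il4ra was found in 60 of 200 control cells with Chil3 and 32.2% of those without, and in Mrc1-DTR in 36.3% (34.4 to 38.2) and 37.1% (34.9 to 39.4), with overlapping intervals.

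Over the 17 class profiles with at least 50 cells, the genes with the most similar levels (Pearson correlation of log2 of CPM plus 10, a description over profiles that share libraries) were Msr1 (0.93), Ly6i and Ccl6 for Chil3, Mgl2 (0.93), Acss1 and Wnt11 for Ear2, and Trem2 (0.97), C1qc and C1qb for Il10. For Il4ra they were Pxn (0.91), Casp1 and Ctns, and for Il13ra1 Maff (0.94), Mbnl2 and Jun. For Il13 they were Trat1 (0.94), Il5 and Calca, but mast-like cells were too few for this comparison. For Retnla they were Myh4 (0.93), Lyz1 and Gm13391, which rests on 318 UMIs, and Myh4 is a muscle gene. The near copies added little to the members, with 2 Chil4 UMIs in each library against 1580 and 43493 of Chil3, although 17.1% of the end windows of Chil3 are shared with Chil4 or Gm6522.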

How the data were processed

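Cells of wound tissue were captured as 1 Chromium 3' library per condition. The authors deposited raw UMI counts per gene and barcode (mm10), without normalization. The submitters' processing notes name Cell Ranger 6.1.1, and the methods name an earlier release. The methods' upper limit of 2000 genes per cell was used as an alternative. Doublets were scored with Scrublet in scanpy 1.11.5 (anndata 0.12.19). In the control library 382 cells were removed, and in the Mrc1-DTR library, where Scrublet called 0, the 575 cells with the highest scores (8%).

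Clustering used Seurat 5.3.0, with SeuratObject 5.2.0 and Matrix 1.6.5 under R 4.3.3, on 2000 variable genes, 30 components and resolutions of 0.2 (all cells) and 0.5 (macrophage-like cells), leaving out 56 and 1014 genes. The 1014 are the type 2 list, the state markers and 5 gene lists of the study. A cluster was named with at least 3 markers raised 2-fold. UMIs were summed per group and divided by all UMIs of the group (CPM). Intervals are exact Poisson for CPM, Clopper-Pearson for shares and conditional binomial for ratios, at 95%. Shares were also taken after thinning each cell to 2000 UMIs. A count of 0 was bounded by 3 UMIs. Ratios added 1 CPM. The text names the members, the type 2 list, near copies, Mrc1, markers of clusters and the 3 most similar genes, and partner genes such as Gata3, Lyz2 or Acod1 were chosen after values had been seen. The members and lists were chosen with earlier results of these data known. Simulated counts were used to check the interval code. The remaining steps ran in Python 3.11.15 (scipy 1.17.1, numpy 2.4.6, pandas 2.3.3), and matplotlib 3.10.9 drew the plots.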

Additional observations from a re-analysis of the deposited data

Results flagged for a closer look

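For Il4ra and Il13 the ratio between the libraries had opposite signs in different cell classes, with neither interval including 0. The log2 ratio of Il4ra was -0.16 in fibroblast-like cells and 0.13 in macrophage-like cells. It was also above 0 in dendritic-like, epithelial-like, endothelial-like and mast-like cells. The value in macrophage-like cells depended on the scaling. It was 0.06 with median-of-ratios size factors, for which no interval was computed. Over all genes of that class the median as reported was 0.06. Within the fibroblast-like class the log2 ratio of Il4ra was -0.27 in the Ctsk-led cluster and 0.30 in the Mfap5-led cluster, so the class value mixes opposite signs. The log2 ratio of Il13 was -4.41 in NK-like cells and 1.19 in mast-like cells. Without cells with at least 10 Il13 UMIs, the levels were 27.7 and 7.28 CPM in NK-like cells and 301 and 357 CPM in mast-like cells. Ear2, lower in macrophage-like cells, was higher in pericyte-like cells (interval 0.06 to 2.67). There it had 0 control UMIs and 9 Mrc1-DTR UMIs, all in 1 cell. With 1 library per condition, the difference between the classes was not tested for any of these genes.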

How the results depend on the processing

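No ratio in macrophage-like cells changed sign under the 12 alternatives run for each of 6 genes, of which 3 were chosen after seeing the data. The 28 values that moved outside the interval of the value reported are given here. With at most 2000 genes per cell, the log2 ratios were 2.98 for Chil3, -3.96 for Retnla, -3.40 for Ear2 and -0.72 for Il10. With 10 CPM added they were -1.35 for Retnla, -1.92 for Ear2 and -0.81 for Il10, and with 0.1 CPM added -2.85 for Retnla. As a mean over cells they were -3.24 for Retnla, -2.69 for Ear2 and -1.29 for Il10. With the genes used in clustering, Chil3 was at 2.99 and Ear2 at -2.26, and with at most 10% mitochondrial UMIs Ear2 was at -2.72. Without cells that had a neutrophil, T or NK marker UMI, Retnla was at -2.12, Il4ra at 0.21 and Il10 at -0.76. The next 3 were added after seeing the data. In the larger all-cell macrophage cluster alone, Chil3 was at 2.71, Retnla at -1.94, Ear2 at -2.04 and Il10 at -0.74. Without the cell with most UMIs, Retnla was at -3.82. With states weighted alike, the values were 1.12 for Chil3, -1.01 for Retnla, -1.36 for Ear2, 0.22 for Il4ra, 0.042 for Il13ra1 and -0.74 for Il10. The cause of these moves was not tested. Il10, just short of 2-fold lower as reported, passed it with median-of-ratios size factors (-1.06), 0.1 CPM added (-1.02), a mean over cells, doublets kept (-1.06), at most 10% mitochondrial UMIs (-1.04), the genes used in clustering (-1.05) and without its highest cell (-1.07), and not under the other alternatives. With median-of-ratios size factors Socs3 no longer passed 2-fold higher. At a finer resolution of 1, an Acod1- and Il10-led state had the highest Il10, at 272.6 and 229.5 CPM. When macrophage-like cells were clustered with no genes left out, the highest Il10 was in a Ccl7-like state in the control (140 CPM). In Mrc1-DTR it was then in a Klf2-like state (82.0 CPM). Thinned to 1000 UMIs, the shares of macrophage-like cells with Chil3 were 8.09% and 46.3%, and those with Retnla 0.725% and 0.0671%. No paired analysis was possible because each condition has 1 library. Depth limits Retnla, Il13 and classes of few cells.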
